A study of Homo sapiens with 6 samples.

Results

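The interferon regulatory factor (IRF) genes were followed in RCC4, an established human cell line of clear cell renal carcinoma. Members were taken by gene identifier and symbol: IRF1 to IRF5 and IRF7 to IRF9, 8 of the 61541 genes in the count tables. The untreated group held 3 cultures of RCC4 in complete medium, without added cytokine; the labels name no vehicle, although alignment names in the headers of all 6 files carry the word dmso. The treated group held 3 cultures given interferon gamma (IFNγ) and tumour necrosis factor (TNF) for 24 h, at 1000 U/mL and 25 ng/mL. The cytokines were given only together, so the part of each cannot be told apart. All 6 libraries came from this 1 cell line, with 3 flasks for each biological replicate. Native poly(A) RNA was read by nanopore sequencing, in which the RNA strand itself enters the pore from its 3′ end. The comparison asks how the RNA of the line differs after this exposure.

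IRF proteins are transcription factors that share an amino-terminal DNA-binding domain with a run of conserved tryptophans, and they bind GAAA repeats in the promoters of interferon-responsive genes. IFNγ signals through its receptor and the JAK kinases to the GAS element (gamma-activated sequence) of its target promoters, and TNF signals to NF-kappaB. IRF1 is a classic target of both routes and an activator of antigen presentation and antiviral genes. IRF2 binds the same sites and can oppose IRF1. IRF3 and IRF7 are activated by kinases downstream of nucleic acid sensors and drive interferon genes, and IRF9 is the DNA-binding IRF subunit of the complex ISGF3, which also holds STAT2. IRF4 and IRF8 are known mainly from lymphoid and myeloid cells, and IRF5 from Toll-like receptor signalling in myeloid cells.

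Library totals ran from 3626000 to 4406296 counts, and a count of 0 allows up to 3 counts, or 0.681 to 0.827 CPM on unnormalised totals. CPM are counts divided by the library total and multiplied up to the same size for all libraries; levels are given on TMM-normalised totals. In RNA from whole cultures, fewer expressing cells and less RNA per cell cannot be told apart. Of 10 leukocyte markers, 8 had 0 counts in all 6 libraries, PTPRC, CD3E and LYZ among them; CD14 had 2 counts in all, and CSF1R had 22, 21 and 13 counts without and 5, 5 and 4 counts with the cytokines. The summed level of that list ran from 2.94 to 5.74 CPM without and from 1.12 to 1.73 CPM in treated libraries. CSF1R was called lower with treatment (edgeR adjusted p 0.0314), and in 6 of 13 alternative fits. All 10 renal carcinoma and epithelial markers had counts, with CA9 at 38.5 ± 7.49 CPM in untreated cells (SD, n = 3). PAX8 fell from 144.7 ± 16.6 to 83.8 ± 11.5 CPM (SD, n = 3 each, edgeR adjusted p 0.0316). VIM rose by 0.66 on the log2 scale, VCAM1 was called higher, and the other 7 were not called. Of the 13 alternative fits, PAX8 was called in 8, VIM in 9 and VCAM1 in all 13. VCAM1 had 1, 0 and 2 counts without and 11, 15 and 14 counts with the cytokines. Its untreated counts lay under the 3 that a count of 0 allows, so no fold is given. The part of these shifts in the results on IRF genes was not tested. Untreated replicate 3 lay apart from the other libraries on the second principal component, which held 27.1% of the variance, with a score of -49.5.

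Among the 8 genes, IRF1, IRF7 and IRF2 rose with treatment, by 39.2-fold, 15.4-fold and 4.77-fold in mean CPM. IRF3, the member with the most counts in untreated cells, was 1.89-fold higher in treated cells and lay at the edge of the threshold. IRF5 had overlapping groups. IRF4 and IRF8 had at most 2 counts in any library, and IRF9 had none. In all, 5 members passed the filter on low counts, each with at least 30 counts in every library. Of these 5, edgeR's quasi-likelihood test at an adjusted p of 0.05 called 3 higher and 0 lower. Over the 10067 genes tested it called 8.14%, with 5.58% higher (562 genes) and 2.55% lower (257 genes). Scaled to library totals alone, those counts were 485 higher and 364 lower. In 4 of the 5 tested members the treated libraries all exceeded the untreated ones, which held for 13.9% of all genes tested, and the groups of 25.9% did not overlap in either direction. The median log2 fold change of the 5 was 2.25, against -0.03 over all genes tested.

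**Figure D1:**
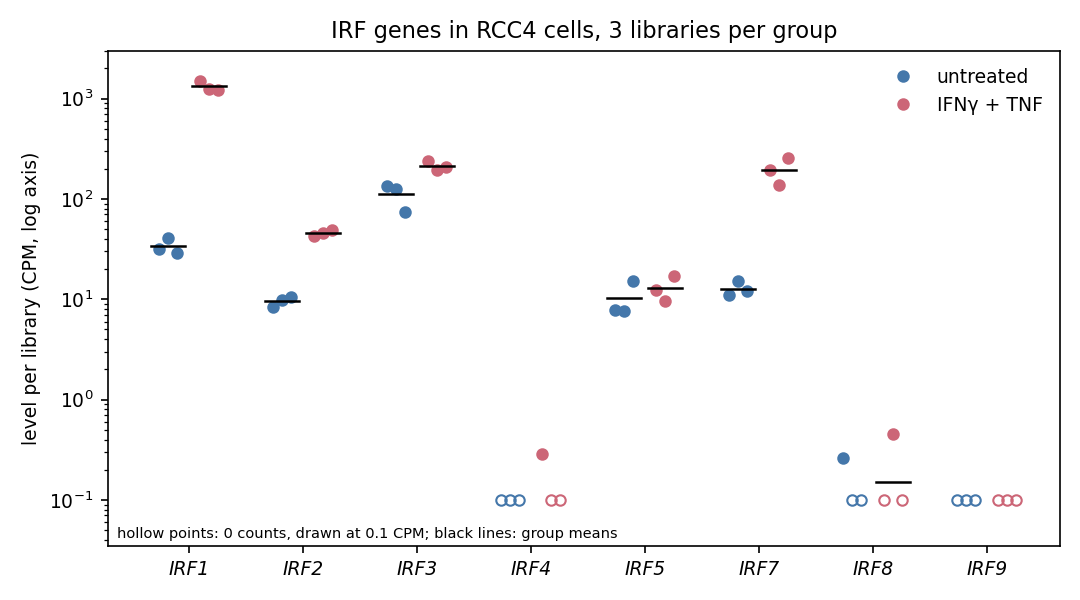
Level of each of the 8 IRF genes (CPM, log axis) in every library, with untreated libraries in blue, IFNγ and TNF libraries in red, and group means as black lines. IRF1, IRF2, IRF3 and IRF7 show no overlap between groups, IRF5 overlaps, and IRF4, IRF8 and IRF9 sit at or near 0 counts (hollow points, drawn at 0.1 CPM).

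IRF1 (ENSG00000125347) lies on chromosome 5, from 132440440 to 132508719 on the minus strand of GRCh38 in the annotation of the deposited files. Its RefSeq promoter window is shown because it holds letters that match both the GAS element and the kappaB pattern, as the window of IRF9 also does. The window covers 250 bases before to 50 bases after the RefSeq start, at chr5:132490724-132491023 (GRCh38.p14, minus strand), printed 5′ to 3′, with motif matches in capitals:
IRF1: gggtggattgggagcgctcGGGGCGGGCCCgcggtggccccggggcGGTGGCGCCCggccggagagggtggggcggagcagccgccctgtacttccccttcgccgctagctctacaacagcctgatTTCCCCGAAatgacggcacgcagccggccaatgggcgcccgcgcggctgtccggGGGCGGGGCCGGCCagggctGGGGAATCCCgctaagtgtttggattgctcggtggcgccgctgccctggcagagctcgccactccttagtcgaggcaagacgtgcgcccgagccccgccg
The capitals TTCCCCGAA match the GAS letters TTCNNNGAA, from -124 to -116 relative to the RefSeq start. The other capitals match the kappaB pattern, GGG and CC with any 5 bases between, with 8 matches counted over both strands, some overlapping each other and none overlapping the GAS match. The last of them, GGGGAATCCC, spans -50 to -41 and matches on both strands. Of all 35116 promoter windows of this length, 7.66% held a GAS match and 58.7% a kappaB match, so the second is a common pattern of letters. A match is a description of the letters and not of binding.

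IRF1 had 32.1, 40.4 and 28.9 CPM in untreated replicates 1, 2 and 3 and 1505, 1247 and 1224 CPM with the cytokines in replicates 1, 2 and 3 1, 2 and 3. The lowest treated library stood 30.3-fold above the highest untreated one, and the groups did not overlap. Group means were 33.8 ± 5.93 and 1325 ± 156 CPM (SD, n = 3 each). The log2 fold change was 5.29 (SE 0.22; edgeR adjusted p 3.34e-06). By log2 fold change IRF1 ranked 76th of 10067 genes, and 0.755% of genes had a value as large. GBP1 and TAP1 had the same adjusted p, a tie left by the Benjamini-Hochberg adjustment, at log2 fold changes of 8.39 and 4.59. The log2 fold change of IRF1 lay between 5.19 and 5.44 in the 13 alternative fits and was past the threshold in all 13.

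IRF2 (ENSG00000168310; chromosome 4, 184387729 to 184474550, minus strand) was less abundant than IRF1 in every library. It had 8.34, 9.78 and 10.6 CPM without and 42.3, 46.0 and 48.8 CPM with the cytokines in replicates 1, 2 and 3. The groups did not overlap and the spread within each was narrow, with means of 9.58 ± 1.155 and 45.7 ± 3.29 CPM (SD, n = 3 each). Its log2 fold change was 2.25 (SE 0.21), with an edgeR adjusted p of 0.00024, and it lay between 2.14 and 2.32 in the 13 alternatives, all past the threshold. Of all genes tested, 2.26% had a log2 fold change as large. The activator IRF1 and its antagonist rose together, IRF1 by more. IRF1 had 3.84, 4.13 and 2.72 counts for each count of IRF2 in untreated libraries and 35.6, 27.1 and 25.1 in treated ones. The log2 ratio went from 1.81 ± 0.321 to 4.85 ± 0.265 (SD, n = 3 each), an 8.24-fold shift of the ratio. An exact permutation test (2-sided) of the shift returned p = 0.1, which is as small as 3 against 3 libraries can reach.

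IRF3 (ENSG00000126456; chromosome 19, 49659569 to 49665875, minus strand) had 136.1, 126.6 and 73.9 CPM without and 237.6, 193.8 and 206.2 CPM with the cytokines in replicates 1, 2 and 3. Untreated replicate 3 was the lowest of its group, yet each treated library lay above all untreated ones. Means were 112.2 ± 33.5 and 212.5 ± 22.6 CPM (SD, n = 3 each). Its log2 fold change was 0.92 (SE 0.24; edgeR adjusted p 0.0504), just outside the threshold of 0.05. Of all genes tested, 7.29% had a log2 fold change as large. IRF3 passed the threshold in 7 of the 13 alternatives, where its log2 fold change ran from 0.69 to 1.10 and its adjusted p from 0.000621 to 0.15. Without untreated replicate 3 the log2 fold change was 0.69 and the edgeR adjusted p 0.0301.

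IRF7 (ENSG00000185507; chromosome 11, 612553 to 615983, minus strand) had 10.9, 15.2 and 11.98 CPM without and 195.1, 139.0 and 253.9 CPM with the cytokines in replicates 1, 2 and 3. Treated replicate 3 was the highest and replicate 2 the lowest, and the lowest treated library stood 9.16-fold above the highest untreated one. Means were 12.7 ± 2.21 and 196.0 ± 57.4 CPM (SD, n = 3 each). IRF7 rose by 3.94 on the log2 scale (SE 0.28; edgeR adjusted p 4.03e-05), and 1.04% of all genes tested had a value as large. Past the threshold in all 13 alternatives, it ran there from 3.72 to 4.19. IRF7 and IRF3 act at the same step of virus sensing, and their balance moved. Counts of IRF7 per count of IRF3 were 0.0805, 0.12 and 0.162 in untreated and 0.821, 0.717 and 1.23 in treated libraries. The log2 ratio went from -3.11 ± 0.507 to -0.15 ± 0.406 (SD, n = 3 each; exact permutation p = 0.1, again the smallest possible, and 0.1 after Benjamini-Hochberg adjustment over the 2 ratios tested).

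IRF5 (ENSG00000128604; chromosome 7, 128937457 to 128950038, plus strand) had 7.82, 7.72 and 15.4 CPM without and 12.4, 9.66 and 17.0 CPM with the cytokines in replicates 1, 2 and 3. Untreated replicate 3 lay among the treated libraries, so the groups overlapped. The log2 fold change was 0.32 (SE 0.36) with an edgeR adjusted p of 0.735, and none of the 13 alternatives brought it past the threshold. Without untreated replicate 3 its log2 fold change was 0.73 (edgeR adjusted p 0.195), and without treated replicate 3 it was 0.09.

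**Figure D2:**
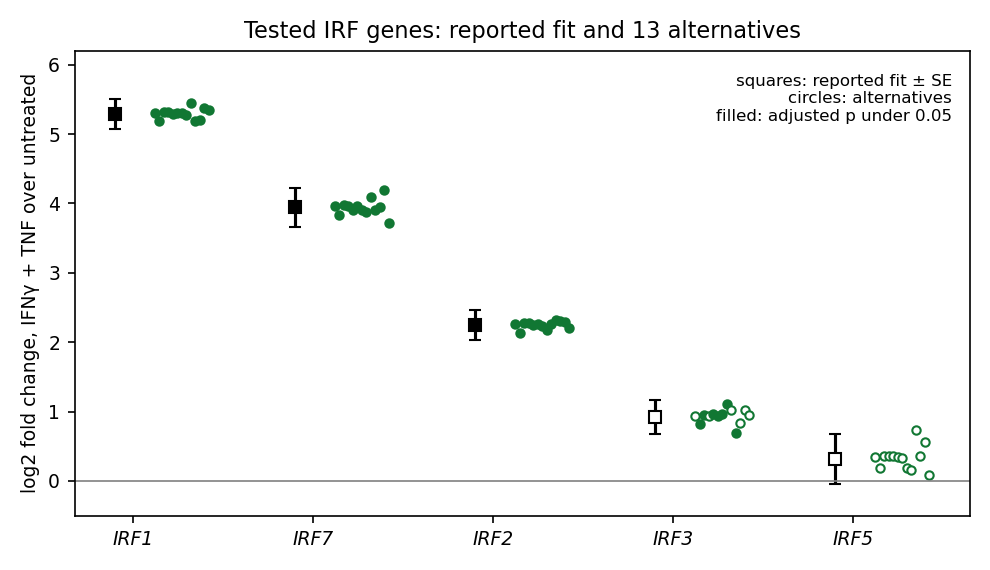
Log2 fold change of treated over untreated cells for the 5 tested IRF genes, with the reported edgeR fit as squares (± SE) and 13 alternative fits as circles, filled where the adjusted p was under 0.05. IRF1, IRF7 and IRF2 are filled throughout, IRF3 is filled in 7 of 13 alternatives, and IRF5 in none.

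The genes of lymphoid and myeloid lineages were close to undetected. IRF4 (ENSG00000137265; chromosome 6, 391752 to 411443) had 0 counts in untreated libraries and 1, 0 and 0 in treated ones. IRF8 (ENSG00000140968; chromosome 16, 85899162 to 85922606), which IFNγ induces in macrophages, had 1, 0 and 0 counts without and 0, 2 and 0 counts with the cytokines. Both stayed at or under the 3 counts that a count of 0 allows, so no fold is given. Among 19158 genes with at least 1 count, 4.43% were called higher, and the edgeR adjusted p was 0.692 for IRF4 and 0.866 for IRF8. With so few counts neither gene could have been called, so these values do not bear on a difference.

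IRF9 (ENSG00000213928; chromosome 14, 24161265 to 24166565, plus strand) had 0 counts in all 6 libraries. Exons of ENSG00000259529, a gene model without a symbol on the same strand, share 1513 of its 3582 exonic bases (42.2%) and 77.4% of its last 500. With the default settings of the counting program, reads that overlap exons of several genes are not counted for any of them, and ENSG00000259529 also had 0 counts in all 6 libraries. No other member shares exonic bases with another gene on its strand. Among protein-coding genes with at least 75% of their last 500 exonic bases covered by exons of other genes, 78.6% had 0 counts in every library, against 29.9% of those with no such overlap. The part of this overlap in the 0 counts of IRF9 was not tested, and no level of IRF9 is given. Its promoter window holds 3 kappaB matches and a GAS match at -63 to -55. The GAS match is shown with 8 bases on either side (chr14:24161194-24161218, plus strand, GRCh38.p14, match in capitals):
IRF9: cacgtgatTTCTGGGAAaaggccct
Of the 8 members, 5 had a RefSeq window (IRF1, IRF4, IRF5, IRF8 and IRF9), with 9 windows in all. No window was at hand for IRF2, IRF3 and IRF7, so their promoters were not searched. GAS matches stood in 2 of the 9 windows, those of IRF1 and IRF9. The IRF element, a pair of GAAA repeats with any 2 bases between, stood in none of the 9.

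**Figure D3:**
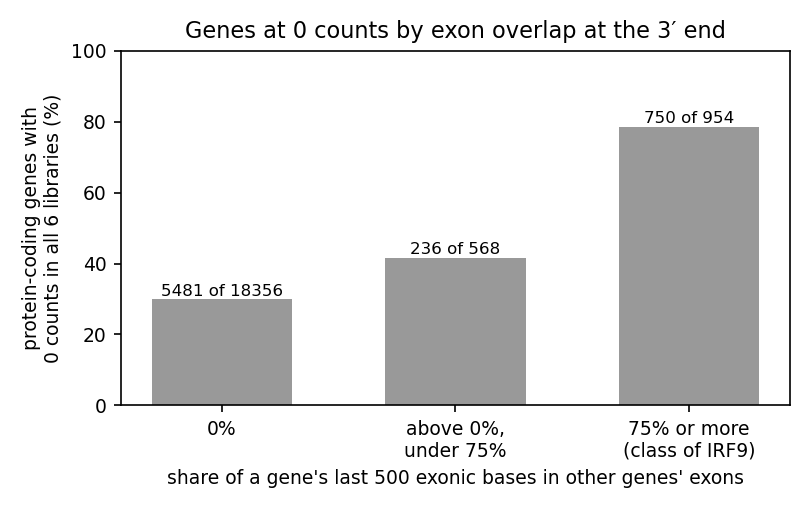
Percent of protein-coding genes with 0 counts in all 6 libraries (bars, axis from 0), by the share of a gene's last 500 exonic bases that is covered by other genes' exons, strand considered. The class that holds IRF9, at 75% or more, has 750 of 954 genes at 0 counts.

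The makeup of the family changed with treatment. The 8 genes together had 178.7 ± 32.8 CPM without and 1793 ± 182 CPM with the cytokines (SD, n = 3 each). IRF3 held 69.6%, 63.4% and 52.5% of IRF counts in untreated replicates, and between 11.8% and 11.9% in every treated one. IRF1 held 16.4%, 20.2% and 20.5% in untreated and 75.5%, 76.2% and 70.0% in treated replicates. The share of IRF7 was 7.24% ± 1.49 before and 10.9% ± 3.16 after treatment (SD, n = 3 each), and its ranges overlapped narrowly, from 5.60% to 8.51% and from 8.50% to 14.5%. IRF2 fell in share from 5.57% ± 1.74 to 2.58% ± 0.393 while its level rose. These shares are set by counts within a library and do not depend on the scaling between libraries. They take IRF9 at 0 counts although no level of IRF9 is given, so they are shares of the counts obtained.

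**Figure D4:**
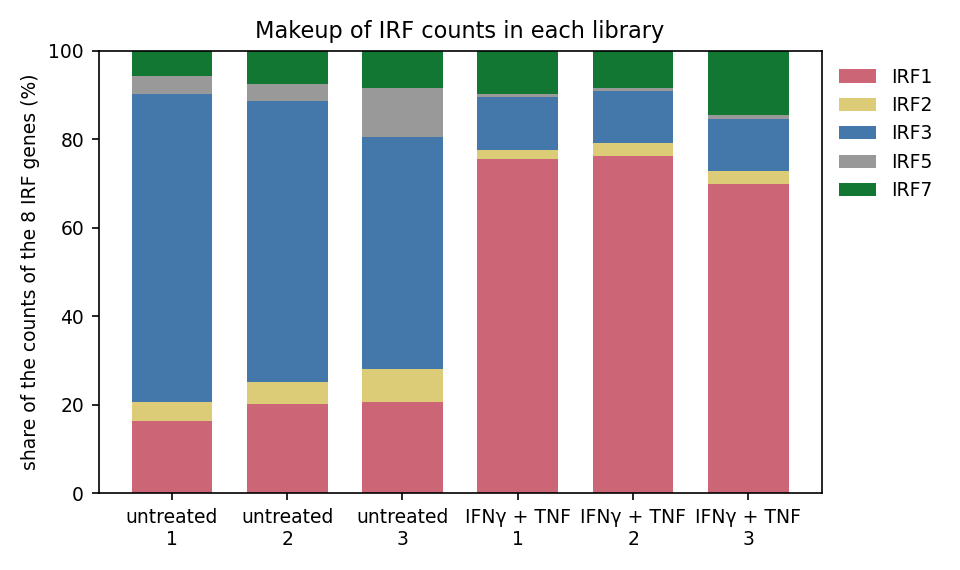
Share of the counts of the 8 IRF genes taken by each gene in every library (stacked bars, percent, axis from 0 to 100). IRF3 is the largest share in the 3 untreated libraries and IRF1 in the 3 treated ones. IRF4 and IRF8 are too few to show, and IRF9 is at 0 counts, from which no level is read.

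Per kilobase of the principal transcript in GENCODE 29, IRF3 had the highest untreated level of the 5 tested members, 64.5 ± 19.2 CPM per kb (SD, n = 3). IRF1 followed at 9.45 ± 1.66, then IRF7 at 6.19 ± 1.08, IRF2 at 4.16 ± 0.502 and IRF5 at 3.70 ± 1.58 CPM per kb. Of these neighbours, IRF2 and IRF5 overlapped in their libraries, whereas IRF1 (lowest 8.09) and IRF7 (highest 7.40) did not. Each strand is read from its 3′ end, so counts need not grow with transcript length and division by length can distort the order. In CPM, untreated IRF5 (10.3) lay above IRF2 (9.58), the reverse of their order per kb. In treated cells IRF1 was first at 370.3 ± 43.6 CPM per kb. IRF3 at 122.1 ± 12.98 and IRF7 at 95.6 ± 28.0 CPM per kb overlapped, and IRF2 at 19.9 ± 1.43 and IRF5 at 4.67 ± 1.34 CPM per kb lay below.

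The genes that carry the signals to IRF promoters were higher in part. Of 11 genes listed, from the IFNγ and TNF receptors to NF-kappaB, 10 were tested, 5 rose and 0 fell (median log2 fold change 0.89). Over all genes tested, 5.58% were called higher and 2.55% lower, with a median of -0.03. RELA, the activating subunit of NF-kappaB, rose by 1.63 on the log2 scale, TNFRSF1A, the main TNF receptor, by 1.03 and STAT3 by 1.17 (edgeR adjusted p 0.00301, 0.008 and 0.00417). SOCS1, a feedback inhibitor of JAK kinases, rose most of the list, with a log2 fold change of 5.15 from 4.23 ± 2.10 to 149.2 ± 25.0 CPM (SD, n = 3 each). IFNGR1 and JAK1 had log2 fold changes of 0.27 and -0.19 with overlapping groups. IFNGR1 was at -0.0046 without untreated replicate 1, and JAK1 at 0.36 without untreated replicate 3. IFNGR2, TRADD and NFKB1 had values of 0.61, 0.76 and 0.64 that did not pass the threshold. JAK2 was too low for the filter, with 1, 3 and 3 counts without and 2, 20 and 15 counts with the cytokines. Among all genes with at least 1 count its log2 fold change was 2.42 (edgeR adjusted p 0.00725). In the 4 fits without 1 library that kept it, the edgeR adjusted p was 0.0258 without treated replicate 1 and from 0.101 to 0.248 without an untreated replicate.

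Among 19 partners and activators of IRF proteins, 15 were tested, 6 rose and 0 fell (median log2 fold change 0.26). The shares over all genes tested were 5.58% higher and 2.55% lower. BATF3, which pairs with IRF proteins on composite sites, rose by 2.98 on the log2 scale (SE 0.31, edgeR adjusted p 0.0004). STAT2, the ISGF3 partner of IRF9, had 2.60, STING1, the adaptor of DNA sensing upstream of IRF3, had 2.43, and MYD88, the Toll-like receptor adaptor upstream of IRF5 and IRF7, went from 9.56 ± 3.30 to 45.4 ± 11.6 CPM (SD, n = 3 each) and was called. IKBKE, a kinase that phosphorylates IRF3 and IRF7, had 1.74. IRF2BP2, a corepressor that binds IRF2, had 0.79 (edgeR adjusted p 0.0361) and passed the threshold in 7 of 13 alternatives. Its relatives IRF2BP1 and IRF2BPL had -0.47 and 0.00 and were not called. TBK1, the sister kinase of IKBKE, had at most 5 counts in any library, and SPI1 and BATF, partners of IRF4 and IRF8 in leukocytes, had 0 in all. The coactivators CREBBP and EP300 were not called in any of the 13 alternatives.

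**Figure D5:**
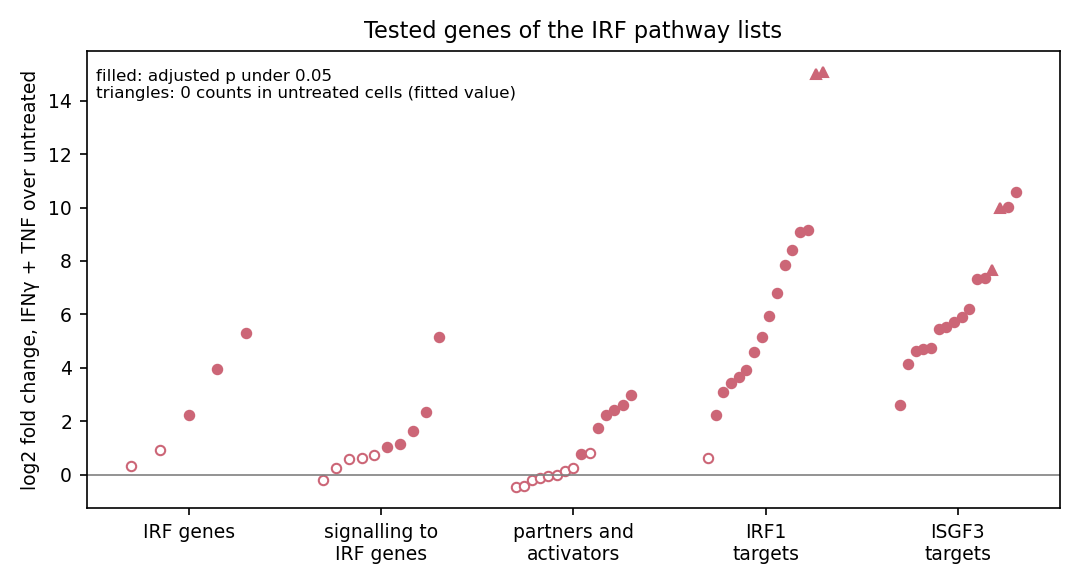
Log2 fold change of treated over untreated cells for the tested genes of each list, 1 point per gene sorted within the list, filled where the edgeR adjusted p was under 0.05. Triangles mark genes with 0 untreated counts, whose fitted values depend on the prior count; 15 of 16 IRF1 targets and 16 of 16 tested ISGF3 targets are filled, of which 8 and 10 had fewer than 10 counts in every untreated library.

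Genes known as targets of IRF1 were examined next. All 16 passed the filter, 15 rose and 0 fell, beside 5.58% higher and 2.55% lower over all genes tested. In 8 of the 16 every untreated library held fewer than 10 counts, so they passed the filter through the treated group and had to differ. Of the other 8, 7 rose. The 16 had a median log2 fold change of 5.54. It was the same with IDO1 and CXCL10, both at 0 in untreated cells, set to their lower bounds. That change covers only these 2 genes. Both medians include all 8 genes that had to differ, so neither is free of the filter. GBP1 and GBP2, interferon-induced GTPases, had log2 fold changes of 8.39 and 7.83, TAP1, the peptide transporter subunit, had 4.59, and PSMB9, an immunoproteasome subunit, had 3.93. NLRC5, the class I transactivator, had 3.09. CIITA, the class II transactivator, had 0, 0 and 2 counts without and 47, 54 and 35 counts with the cytokines. The member that was not called was the cytokine gene IL15 (log2 fold change 0.62, edgeR adjusted p 0.168), although its treated libraries all lay above the untreated ones.

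Of 20 listed targets of ISGF3, 16 passed the filter and all 16 rose, beside 5.58% of all genes tested. In 10 of these every untreated library held fewer than 10 counts, so they too passed through the treated group, and the 4 that did not pass were not tested. The other 6 rose. The 16 had a median log2 fold change of 5.81 (5.48 with MX2 and EPSTI1, at 0 in untreated cells, set to their bounds). Both medians include the 10 genes that passed through the treated group, so neither is free of the filter. IFIT1, IFIT2 and IFIT3, which bind viral RNA or act with proteins that do, had log2 fold changes of 4.62, 5.89 and 5.73, and ISG15, a ubiquitin-like modifier, had 4.70. MX1 was too low for the test, with 3, 5 and 2 counts without and 10, 7 and 16 counts with the cytokines. MX2 was at least 41.3-fold higher, measured against 3 counts per library. In 13 of the 16 the highest treated library was replicate 3, as it was for 315 (56.0%) of the 562 genes called higher. Among the IRF genes called higher, IRF2 and IRF7 were also highest there. Of the 15 IRF1 targets called higher, 7 were highest in replicate 3, 4 in replicate 2 and 4 in replicate 1, the library in which IRF1 was highest. All these genes were read in the same 3 treated libraries, so they are not independent of each other. The part of any IRF gene in these patterns was not tested. Replicate 1 was highest for 0 of the 16 ISGF3 targets and for 29.2% of all genes called higher.

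None of the 10 type I and III interferon genes listed, the products by which IRF3 and IRF7 are best known, passed the filter. IFNB1 and 6 others had 0 counts in all libraries. IFNL1 had 0, 2 and 3 counts in treated replicates, IFNL2 had 1, 1 and 0, IFNL3 had 0, 1 and 0, and all were at 0 in untreated ones. IFNL2 and IFNL3 are near-identical copies, so their reads could be split or left uncounted. With at most 3 counts in any library, no difference was detectable at this depth.

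The element that IRF proteins bind was then looked for in the promoters of these targets. The IRF element, searched on both strands, stood in 3.57% of all windows. It stood in 43.75% of the windows of IRF1 target genes (7 of 16) and in 70.8% of those of ISGF3 target genes (17 of 24). Counted by gene, it stood in at least 1 window of 7 of the 9 IRF1 target genes that had one, and of 13 of the 16 ISGF3 target genes. Over all genes with windows, the share was 13.2% of windows for genes called higher (83 of 627), 2.28% for tested genes not called (244 of 10708) and 1.60% for genes called lower (5 of 312). For GAS the shares were 12.9%, 5.65% and 4.17%, and for kappaB 75.9%, 73.1% and 69.2%. These are shares of letters found, given with no test. Both lists hold known targets, so a high share in them is not an independent result. Their called members are also among the genes called higher. Windows of the same gene can overlap and hold the same site, as in IFI44 and IFI27. Matches in target promoters that show the GAAA repeat are printed 5′ to 3′ on the strand that carries it, with the element in capitals and 8 bases on either side (GRCh38.p14):
GBP1, chr1:89065318-89065343, plus: agtaatatGAAACTGAAAgtacttcg
TAP1, chr6:32853821-32853846, plus: gggaaagcGAAATCGAAAgcggccgc
CXCL10, chr4:76023701-76023726, minus: atgttttgGAAAGTGAAAcctaattc
IL18BP, chr11:71999542-71999567, plus: taaaaagtGAAAGTGAAAtagagggt
IFIT1, chr10:89392499-89392524, minus: cgaaagggGAAAGTGAAActaaagct
ISG15, chr1:1013376-1013401, plus: tgcctcggGAAAGGGAAAccgaaact
RSAD2, chr2:6877624-6877649, minus: ccacatgtGAAACTGAAAgttgaaac
The CXCL10, IL18BP and IFIT1 elements have the same 10 letters, as do those of GBP1 and RSAD2. In TAP1, ISG15 and IFIT1 a second match lies next to or overlaps the one printed.

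The 5 neighbours of the risen members given here were not called. Around IRF1, SLC22A5 at a gap of 44.8 kb and SEPTIN8 at 242.1 kb had log2 fold changes of -0.61 and -0.13 (edgeR adjusted p 0.31 and 0.874). PHRF1 ends 331 bases from IRF7 and had 54, 57 and 51 counts without and 85, 55 and 29 counts with the cytokines, a log2 fold change of 0.16 (edgeR adjusted p 0.897). DEAF1, on the other side of IRF7, had -0.03. TRAPPC11, the nearest tested gene on the lower-coordinate side of IRF2, had 0.08.

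The gene whose pattern over the 6 libraries lay nearest to that of IRF1 was WARS1, the cytosolic tryptophanyl-tRNA synthetase, at a Euclidean distance of 0.597 in centred log2 CPM out of 6744 genes whose mean was 10 CPM or more. XIRP1, TEX29, SLC15A3 and SAA1 followed, at 0.623, 0.698, 0.751 and 0.882. XIRP1, TEX29 and SLC15A3 had 0 untreated counts, so their distance depends on the prior count of 2, whereas SAA1, an acute phase protein, went from 6.89 ± 2.06 to 236.9 ± 25.4 CPM (SD, n = 3 each). The libraries and their scaling are shared by all of these genes.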

How the data were processed

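Values deposited by the authors are raw read counts per gene, 1 table per library, with exonic length per gene as a further column. Per the file headers, featureCounts 2.0.1 counted reads in long-read mode over exons of Ensembl 105 (GRCh38), strand-specific. The submitters' processing notes name minimap2 2.24, SAMtools 1.16 and featureCounts 2.0.0. Per the series design text, reads above quality 7 were used.

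Groups and replicate numbers came from sample titles. Differences were tested with edgeR 4.0.16 in R 4.3.3 (quasi-likelihood F test, TMM, filterByExpr, group as sole term, Benjamini-Hochberg over 10067 genes, threshold 0.05). SE is the absolute log2 fold change over the square root of F. The code was tested on simulated data. The 13 alternatives were DESeq2 size factors, library totals, 2 other filters, the replicate number as a term, DESeq2 1.42.0, limma 3.58.1 voom, and each library left out. No pair of replicates agreed within sampling noise (ratio of chi-square to its degrees of freedom 3.75 to 28.1).

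The members, lists and rules for naming genes were chosen with earlier results of these data known. Some lists overlap, so their counts are not separate. STAT2 is both a partner and an ISGF3 target, and SOCS1 both a signalling gene and an IRF1 target. VCAM1 is both a renal carcinoma and epithelial marker and an IRF1 target, and SPI1 both a leukocyte marker and a partner. Named genes were all members, signalling genes, partners past the threshold, list members in list order (up to 6), nearest tested neighbours and the 5 genes nearest IRF1; the lineage markers, interferon genes, partners not past the threshold, IL15, genes at 0 in untreated cells and genes with printed elements were named after their values were seen. Another gene of the family, some list members and 1 neighbour are not reported singly here. Protein sequences were not used here. Promoters are RefSeq's (GRCh38.p14).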

Additional observations from a re-analysis of the deposited data

How the results depend on the processing

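The direction of all 5 tested IRF genes held in all 13 alternatives, and IRF1, IRF2 and IRF7 were past the threshold in each. IRF3 was the exception in its call: its log2 fold change was past the threshold with library totals alone (0.83), every gene with at least 1 count (0.94), the replicate block (0.96), DESeq2 (0.93) and limma voom (0.97), and ran from 0.69 to 1.10 over the fits without 1 library. Calls over all genes moved more. With every gene that had at least 1 count they were 1328 (849 higher, 479 lower), and with the replicate block 1513 (907 higher, 606 lower). Over the fits without 1 library, 455 to 1178 genes were called, 358 to 733 higher and 96 to 445 lower. The fit on every gene with at least 1 count tests more genes, but the adjusted p of single genes also changed in it. For IRF1 the edgeR adjusted p was 1.02e-81 there and 3.34e-06 in the reported fit, at log2 fold changes of 5.32 and 5.29. The cause was not tested. The lowest counts of calls came without treated replicate 3 (455) and without untreated replicate 2 (465). Under library totals alone the median gene stood at -0.13 on the log2 scale and under TMM at -0.03. The planned comparison of protein sequences was not run.

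The replicate numbers were not treated as pairing the cultures: same-numbered libraries had correlations of 0.651, -0.0037 and 0.374 in their deviations from group means, and untreated replicate 2 correlated best with treated replicate 1 (0.249). The block changed the call of no IRF gene other than IRF3. At this depth IRF4, IRF8 and the interferon genes were at or under 3 counts in every library, so no difference was detectable. The part of overlapping exons in the 0 counts of IRF9 was not tested.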

Other observations

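A pair of non-coding genes that adjoin IRF1 and IRF2 were looked at after the values of the family were seen. IRF1-AS1, on the opposite strand from IRF1, had 0 counts in untreated libraries and 2, 5 and 2 in treated ones. IRF2-DT, the divergent transcript of IRF2, had 2, 3 and 3 counts without and 6, 10 and 7 counts with the cytokines, or 0.657 ± 0.127 and 1.99 ± 0.260 CPM (SD, n = 3 each). In both, each treated library lay above each untreated one, and both fell outside the filter on low counts, so no test is given.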
